A study of Amorphotheca resinae with 20 samples.

Results

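The response of Amorphotheca resinae ZN1 to syringaldehyde was read from the 2 syringaldehyde libraries and the 2 control libraries of the phenolic aldehyde table, chosen by their column labels, which are 4 of the 20 libraries of the series. The series exposed this filamentous fungus to furans, phenolic aldehydes or weak acids of the kind found in pretreated plant biomass and counted RNA-Seq reads per gene. All libraries came from mycelia of the wild type strain ZN1 grown at 28 °C in potato-dextrose agar medium and harvested at 4 h. The syringaldehyde group received 0.1 g/L syringaldehyde. The control group is labelled as the control of the phenolic aldehydes, and whether it received a solvent is not stated. The vanillin and 4-hydroxybenzaldehyde groups of the same table, 2 libraries each at 0.1 g/L, were used to show where syringaldehyde differed from its closest relatives. The labels do not say that the 2 libraries of a group came from separate cultures. All p-values therefore measure only the spread between duplicate libraries, which may be technical. This spread was estimated over all groups of a table together, not from the 2 groups compared alone.

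Syringaldehyde is a phenolic aldehyde built from the syringyl units of lignin, the aromatic polymer of plant cell walls, and is released when hardwoods and grasses are pretreated for fermentation. Aromatic aldehydes of this kind slow the growth of many fermenting microbes, and fungi that tolerate them commonly reduce them to the alcohol or oxidise them to the acid. Amorphotheca resinae, the kerosene fungus, grows on hydrocarbons, and strain ZN1 has been studied for its ability to remove such inhibitors from pretreated biomass. Syringaldehyde, vanillin and 4-hydroxybenzaldehyde share a benzaldehyde ring with a hydroxyl group opposite the aldehyde and carry 2, 1 and 0 methoxy groups. Equal mass doses gave unequal molar doses of 0.549 mmol/L syringaldehyde, 0.657 mmol/L vanillin and 0.819 mmol/L 4-hydroxybenzaldehyde.

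The count tables list genes by identifier and do not pair them with names or product descriptions. No role could therefore be given for the genes below, and mycelial marker genes could not be checked. The syringaldehyde libraries held 16914126 and 15250262 reads and the control libraries 17115633 and 21519549. The 4 libraries of the other aldehydes held between 14609602 and 26106956. Levels are given in CPM, the reads of a gene relative to its scaled library total, with no correction for gene length, so they compare one gene between libraries and not one gene with another. With bulk mycelia, a change in the RNA of each cell and a change in the mix of cells cannot be told apart. Among 11614 genes with at least 10 CPM, the 2 syringaldehyde libraries differed more from each other than did the duplicates of the other groups. The SD of their log2 difference was 0.412, against 0.307 for the controls, 0.250 for vanillin and 0.161 for 4-hydroxybenzaldehyde, and 247 genes differed more than 2-fold between the 2 syringaldehyde libraries.

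Whether syringaldehyde changed the transcriptome at 4 h was asked by testing each gene against the control. Of 17495 genes tested, 4218 (24.1%) differed at an adjusted p under 0.05 in edgeR's quasi-likelihood test with Benjamini-Hochberg adjustment. Of these, 1909 (10.9%) rose and 2309 (13.2%) fell. Most changes were modest, with a median log2 fold change of 0.84 among the genes that rose and -0.86 among those that fell. At least 2-fold changes were found for 669 rising genes (3.82%) and 795 falling genes (4.54%). The 95% confidence interval of the change lay wholly beyond 2-fold for 166 rising (0.949%) and 201 falling genes (1.15%). The median over all genes tested was 0.01. The number of genes called varied with the libraries that entered the fit, and the cause was not tested. It was 1625 without control replicate 2, of which 589 were higher and 1036 lower, and 5853 when syringaldehyde replicate 2 was left out. It was 2827 without control replicate 1, with 987 higher, and 2067 when only these 2 groups entered the fit. Rises of at least 2-fold numbered 378 without control replicate 2, and falls of that size 1335 without syringaldehyde replicate 2.

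Changes beyond 16-fold were mostly falls. Between 2- and 4-fold, 560 genes rose and 686 fell, and between 4- and 8-fold the counts were 77 and 62. Between 8- and 16-fold they were 27 and 21, and beyond 16-fold only 5 genes rose while 26 fell. With at least 10 CPM in a group, the genes beyond 16-fold were 3 rising and 24 falling. The calls came mainly from well-covered genes. Of the 1054 genes with a mean under 1 CPM 3.13% were called, compared with 14.6% of the 4864 genes at 1 to 10 CPM. The share was 29.5% of the 9200 genes at 10 to 100 CPM and 32.0% of the 2377 genes at 100 CPM or more. No gene went from at most 1 CPM in both control libraries to at least 10 CPM in both syringaldehyde libraries, and 2 genes went the other way.

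**Figure D1:**
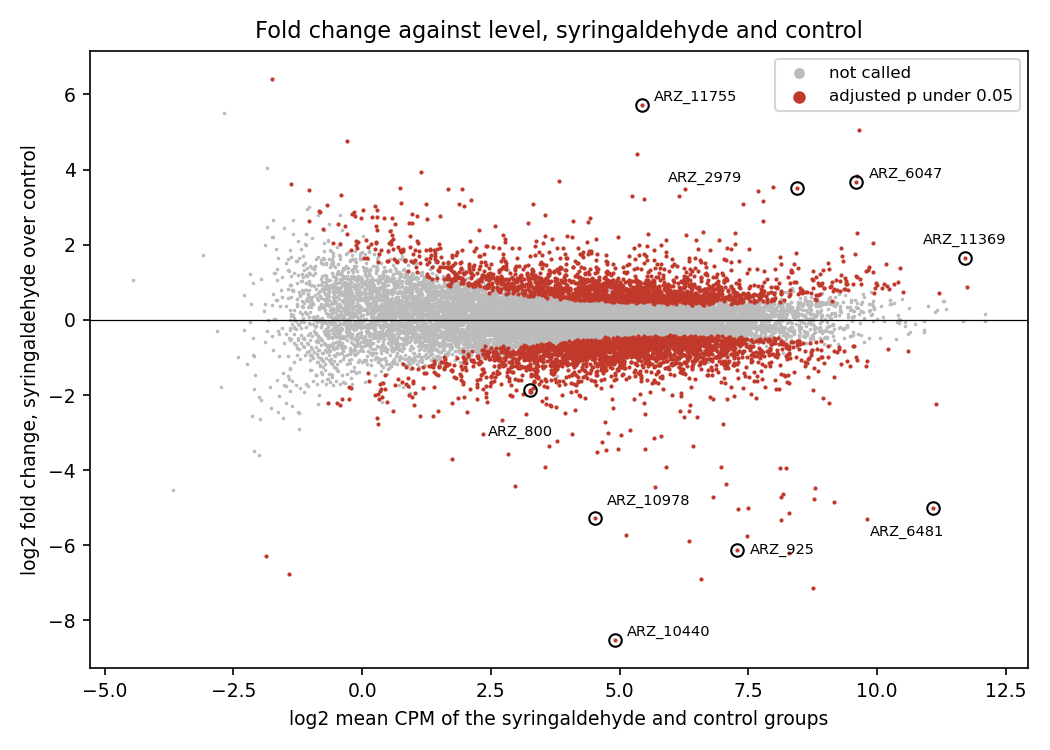
Log2 fold change of syringaldehyde over control (vertical axis) against the log2 of the mean CPM of both groups (horizontal axis), with a point for each gene tested, called genes in red and the 9 named genes circled. Among genes with at least 10 CPM in a group, 24 fell and 3 rose at least 16-fold.

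Read by library, genes called at least 2-fold higher held 2.60% and 2.44% of the reads of the control libraries and 8.28% and 5.75% of those of the syringaldehyde libraries. The same genes held 5.21% and 5.49% in vanillin and 2.88% and 2.92% in 4-hydroxybenzaldehyde. Genes called at least 2-fold lower held 8.13% and 8.01% of the control reads and 2.23% and 2.84% of the syringaldehyde reads. In vanillin they held 5.39% and 5.06%, and in 4-hydroxybenzaldehyde 7.07% and 7.24%. For both sets of genes, vanillin stood between the control and syringaldehyde, while 4-hydroxybenzaldehyde lay nearer to the control. These sets were chosen on the syringaldehyde and control libraries, so their shares there are descriptions with no test. That choice also favours these 2 groups as the extremes, so the place of the other aldehydes between them is no separate result.

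Each syringaldehyde library was also set against each control library separately. The genes called at least 2-fold higher had a median log2 ratio, taken on CPM + 0.5, of 1.36 for replicate 1 over control replicate 1 and of 1.11 for replicate 2 over control replicate 2. Those called at least 2-fold lower had medians of -1.30 and -1.24 in the same pairs. The other two pairings gave 1.43 and -1.44, and 1.03 and -1.04, so the median rise was larger in syringaldehyde replicate 1 with either control. These genes were called on the same libraries, and their direction in each pair is therefore no separate support.

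**Figure D2:**
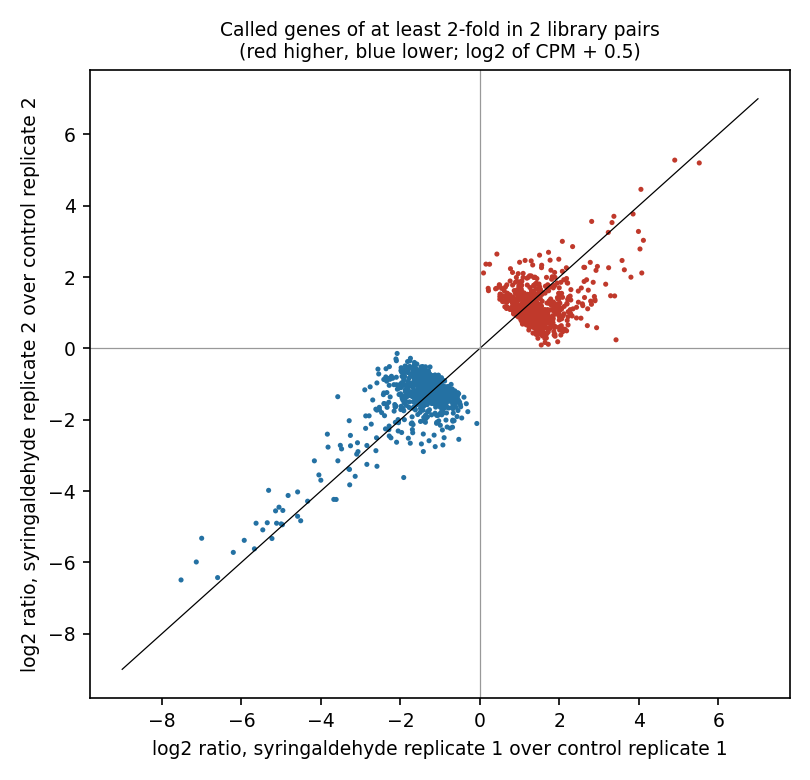
Log2 ratio of single syringaldehyde libraries over single control libraries for genes called at least 2-fold, with replicate 1 over control replicate 1 on the horizontal axis, replicate 2 over control replicate 2 on the vertical axis, higher genes in red and lower genes in blue. The rises reach a median of 1.36 in the first pair and 1.11 in the second, and the falls -1.30 and -1.24.

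Genes were named by a rule that took, among clear changes, the largest fold and the largest change of mean CPM in each direction. Among genes with at least 10 CPM in a group, the largest rise was that of ARZ_11755_T1. It stood at 1.38 and 1.79 CPM in the control libraries and at 86.0 and 83.6 CPM in the syringaldehyde libraries. Both syringaldehyde libraries were far above both controls, with a log2 fold change of 5.72 ± 0.20 (SE, n = 2 libraries a group; edgeR quasi-likelihood test, adjusted p = 5.82e-09). Its level was higher with vanillin, at 185 and 172 CPM, and stayed at 1.35 and 1.43 CPM with 4-hydroxybenzaldehyde. Against vanillin the syringaldehyde level was lower by a log2 difference of -1.08 (95% confidence interval -1.39 to -0.76; edgeR adjusted p = 0.000712). Against 4-hydroxybenzaldehyde it was higher by 5.92 ± 0.20. In the separately tested furan table, ARZ_11755_T1 also rose, by 2.24 on the log2 scale with furfural and 3.97 with HMF (edgeR adjusted p = 2.87e-05 and 1.5e-08). In the weak acid table it gave -0.44 with acetic acid and -0.64 with formic acid and did not pass the test (edgeR adjusted p = 0.526 and 0.345).

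The largest gain in CPM was that of ARZ_11369_T1, which had 1996 and 1223 CPM in the control libraries and 6872 and 3196 CPM in the syringaldehyde libraries. The groups did not overlap, but the syringaldehyde libraries lay further apart from each other than the lower of them lay from the controls. The log2 fold change was 1.65 ± 0.36 (SE, n = 2; edgeR quasi-likelihood test, adjusted p = 0.00658). Without control replicate 2 the adjusted p was 0.0994, the only call lost in 120 recalculations for named genes. Without syringaldehyde replicate 1 the log2 fold change was 0.99, just under the 2-fold used for naming. With vanillin the gene stood at 2924 and 4507 CPM and with 4-hydroxybenzaldehyde at 759 and 799 CPM. The vanillin and syringaldehyde libraries overlapped, and the log2 difference of 0.44 had a 95% interval of -0.32 to 1.20 (edgeR adjusted p = 0.544). ARZ_11369_T1 fell with furfural against the furan control, with a log2 fold change of -0.95 (edgeR adjusted p = 0.00033). HMF gave -0.40 and did not pass the test (edgeR adjusted p = 0.185). Acetic acid lowered the gene against the acid control, with -0.64 (edgeR adjusted p = 0.0235). Formic acid gave 0.45 and did not pass (edgeR adjusted p = 0.102). Because CPM is not corrected for length, naming genes by change of CPM favours long transcripts.

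Among the clear rises against the control, ARZ_6047_T1 and ARZ_2979_T1 stood highest above vanillin. ARZ_6047_T1 had 1760 and 1104 CPM with syringaldehyde, 110 and 113 CPM in the control and 83.6 and 143 CPM with vanillin. Its level with 4-hydroxybenzaldehyde was 56.3 and 61.4 CPM. Syringaldehyde was thus the only one of the 3 phenolic aldehydes with libraries above the control range by more than 2-fold. The log2 fold change was 3.68 ± 0.29 against the control (edgeR adjusted p = 3.85e-06), 3.66 ± 0.29 against vanillin (adjusted p = 4.72e-06) and 4.60 ± 0.30 against 4-hydroxybenzaldehyde (adjusted p = 5.88e-07). Vanillin against control gave 0.02.

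ARZ_2979_T1 had 671 and 607 CPM with syringaldehyde, against 38.2 and 73.9 CPM in the control libraries. With vanillin it had 42.6 and 70.6 CPM and with 4-hydroxybenzaldehyde 42.4 and 50.4 CPM. The syringaldehyde libraries stood above every other library of the table, and the 6 others overlapped. The rise was 3.51 ± 0.31 on the log2 scale against the control (edgeR quasi-likelihood test, adjusted p = 1.12e-05) and 3.50 ± 0.31 against vanillin (adjusted p = 1.36e-05). In the separately tested furan table, ARZ_2979_T1 rose by 1.52 on the log2 scale with furfural and 0.70 with HMF (edgeR adjusted p = 1.25e-07 and 0.00702), and ARZ_6047_T1 by 1.23 and 0.93 (adjusted p = 1.69e-06 and 0.000455). In the weak acid table, ARZ_2979_T1 rose by 0.48 with acetic acid and had a log2 fold change of -0.82 with formic acid (edgeR adjusted p = 0.0168 and 0.000469). ARZ_6047_T1 gave 0.15 and -0.46 there and did not pass the test (adjusted p = 0.680 and 0.193).

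The deepest fall was that of ARZ_10440_T1, from 66.2 and 53.3 CPM in the control libraries to 0.188 and 0.124 CPM with syringaldehyde. The syringaldehyde values rest on 3 and 2 reads, against 1151 and 1133 in the controls. From the summed reads the level was 378-fold lower, with an exact 95% interval of 162 to 1167 that covers counting error only. Vanillin left 0 and 0.340 CPM, or 0 and 5 reads, and 4-hydroxybenzaldehyde 15.97 and 20.8 CPM. Against the control, 4-hydroxybenzaldehyde thus also lowered the gene, with a log2 fold change of -1.70 (edgeR adjusted p = 0.00423). Syringaldehyde and vanillin could not be told apart at this depth, with a ratio of 1.29 and an interval of 0.298 to 5.62. ARZ_10440_T1 also belonged to one of the pairs of parallel identifiers described further on, and its partner fell by 5.75 on the log2 scale.

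The largest loss in CPM was that of ARZ_6481_T1, which had 4472 and 3916 CPM in the control libraries and 129 and 130 CPM with syringaldehyde. With vanillin it had 5204 and 4444 CPM and with 4-hydroxybenzaldehyde 5507 and 5610 CPM. Both syringaldehyde libraries stood far below all 6 other libraries, which lay close together. The log2 fold change was -5.02 ± 0.26 against the control (edgeR quasi-likelihood test, adjusted p = 6.63e-08), -5.22 ± 0.26 against vanillin and -5.42 ± 0.26 against 4-hydroxybenzaldehyde. Vanillin and 4-hydroxybenzaldehyde gave 0.20 and 0.41 against the control (adjusted p = 0.547 and 0.267).

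A similar pattern was seen for ARZ_925_T1, with 346 and 269 CPM in the control libraries and 4.20 and 4.60 CPM with syringaldehyde. The vanillin libraries had 322 and 216 CPM and the 4-hydroxybenzaldehyde libraries 528 and 473 CPM. The syringaldehyde libraries were again the lowest by far, with log2 fold changes of -6.12 ± 0.27 against the control, -5.93 ± 0.27 against vanillin and -6.83 ± 0.28 against 4-hydroxybenzaldehyde (edgeR adjusted p = 1.69e-08, 2.96e-08 and 5.97e-09). ARZ_10978_T1 fell from 51.5 and 37.7 CPM in the control libraries to 1.07 and 1.24 CPM with syringaldehyde. It moved the other way with vanillin, to 111 and 126 CPM, and had 68.4 and 65.4 CPM with 4-hydroxybenzaldehyde. Its log2 fold change against the control was -5.26 ± 0.24 for syringaldehyde (edgeR adjusted p = 2.07e-08) and 1.41 ± 0.17 for vanillin (adjusted p = 0.00028), and syringaldehyde lay below vanillin by -6.67 ± 0.24.

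ARZ_800_T1 separated all groups of the table. It had 18.8 and 11.2 CPM in the control libraries and 2.70 and 5.47 CPM with syringaldehyde. Vanillin gave 61.6 and 60.9 CPM and 4-hydroxybenzaldehyde 1696 and 1567 CPM. No 2 groups overlapped, and syringaldehyde was the lowest. Against the control the log2 fold change was -1.87 ± 0.31 for syringaldehyde (95% interval -2.54 to -1.19; edgeR quasi-likelihood test, adjusted p = 0.00152), 2.04 for vanillin and 6.77 for 4-hydroxybenzaldehyde. Syringaldehyde lay below 4-hydroxybenzaldehyde by -8.64 ± 0.37 (adjusted p = 1.1e-08).

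**Figure D3:**
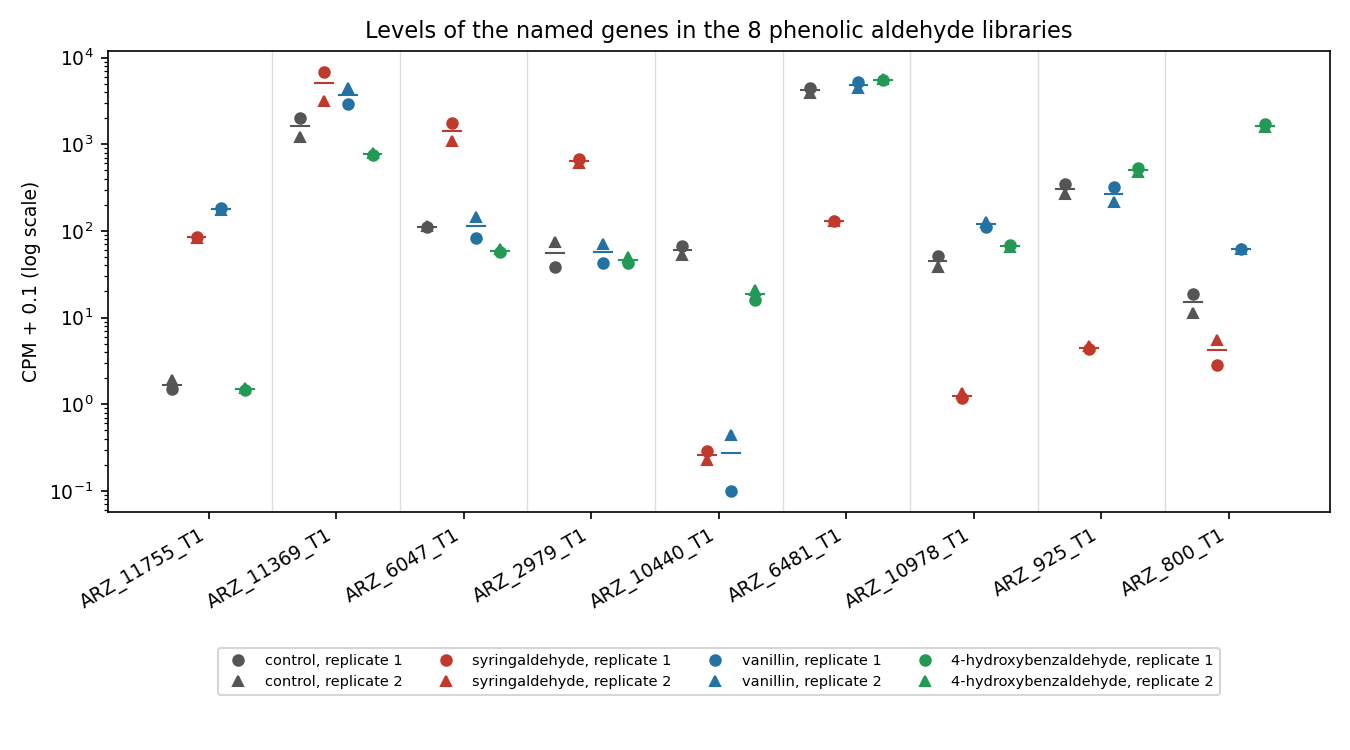
Level as CPM + 0.1 on a log axis of the 9 named genes in the 8 libraries of the phenolic aldehyde table, with a circle for replicate 1, a triangle for replicate 2, a bar for the group mean and a colour for each group. ARZ_6047_T1 and ARZ_2979_T1 are high, and ARZ_6481_T1, ARZ_925_T1 and ARZ_10978_T1 low, in the 2 syringaldehyde libraries alone.

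Compared directly with vanillin in the same fit, syringaldehyde differed at 830 genes (4.74%), 333 higher (1.9%) and 497 lower (2.84%). Compared with 4-hydroxybenzaldehyde it differed at 3719 genes (21.3%), 1784 higher (10.2%) and 1935 lower (11.1%). These were the 2 pairs of compounds compared, each with its own Benjamini-Hochberg adjustment over the 17495 genes. For genes of 10 CPM or more, 11614 in number, the difference from vanillin had a 95% interval that lay within 2-fold for 10211 genes (87.9%) and wholly beyond it for 139. For 4-hydroxybenzaldehyde the numbers were 8543 (73.6%) and 310, and for the control 8443 (72.7%) and 267. The mass doses were equal but the molar dose of syringaldehyde was the lowest, so dose and structure cannot be told apart. The count against vanillin was 263 without vanillin replicate 1, 346 without vanillin replicate 2 and 2166 without syringaldehyde replicate 2, and 437 with these 2 groups alone. Against 4-hydroxybenzaldehyde it was 1116 without 4-hydroxybenzaldehyde replicate 1 and 1161 without its replicate 2.

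The 24 genes that fell at least 16-fold from a level of at least 10 CPM (0.137% of the genes tested) were followed across the table. Their log2 fold changes against the control ran from -8.52 to -4.36, with a median of -5.08. Of the 24, 19 were also lower than with vanillin in the direct test, by -6.67 to -3.68 on the log2 scale (edgeR quasi-likelihood test, adjusted p from 5.5e-09 to 4.72e-07), against 2.84% of all genes tested. The medians of these 19 genes were 588 and 461 CPM in the control libraries, 320 and 299 CPM with vanillin, and 528 and 494 CPM with 4-hydroxybenzaldehyde. They were 11.2 and 13.8 CPM with syringaldehyde. Vanillin against control gave these genes a median log2 fold change of -0.08, within a range of -1.46 to 1.42, and 4-hydroxybenzaldehyde 0.28, within -0.84 to 0.91. These 19 genes were chosen as lower than with vanillin. With vanillin itself, 6 of the 19 also fell against the control, by log2 changes of -1.46 to -0.65, and 2 rose, by 1.41 and 1.42. The other 11 did not pass that test. Over all genes tested, 10.4% fell and 8.83% rose with vanillin. The comparisons of syringaldehyde with control and with vanillin share the syringaldehyde libraries.

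The other 5 of the 24 genes were low with vanillin too. They had 18.6 to 399 CPM and 11.1 to 303 CPM in the control libraries. In the vanillin libraries they had 0 to 5.88 CPM and 0.340 to 5.84 CPM. In the 4-hydroxybenzaldehyde libraries they had 3.72 to 149 CPM and 3.58 to 150 CPM. All 5 thus also fell with 4-hydroxybenzaldehyde against the control, by log2 changes of -2.02 to -1.23 (edgeR adjusted p from 0.000362 to 0.00832). Their log2 difference between syringaldehyde and vanillin was 0.05 to 1.51 (edgeR adjusted p from 0.165 to 0.941). All 24 genes were lower with syringaldehyde than with 4-hydroxybenzaldehyde in the direct test, against 11.1% of all genes tested. They were chosen for low values in the same syringaldehyde libraries. Of the 24, 14 had another of the 24 within 2 identifier numbers. ARZ_10440_T1 and ARZ_16710_T1, which are among the 5, form one of the parallel pairs described further on. ARZ_10438_T1 and ARZ_16712_T1, also among the 5, have numbers close to theirs. Calls for the 24 genes may therefore not all be separate. The 2 syringaldehyde libraries gave similar levels for these genes, with replicate 1 at 0.461 to 1.84 times replicate 2 and above it for 6 of the 24.

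The 16 genes that rose at least 8-fold to a level of at least 10 CPM (0.0915% of the genes tested) were mostly high with vanillin too. Their log2 fold changes against the control ran from 3.08 to 5.72, with a median of 3.50. Their median levels were 25.7 and 21.9 CPM in the control libraries, 299 and 158 CPM with syringaldehyde, 159 and 158 CPM with vanillin, and 24.4 and 29.0 CPM with 4-hydroxybenzaldehyde. With vanillin, 3 of the 16 were lower than with syringaldehyde, by log2 differences of 2.52 to 3.66 (1.9% of all genes tested were so called), and 2 were higher, with syringaldehyde minus vanillin differences of -1.08 and -1.05. The other 11 did not pass the direct test. All 16 were higher with syringaldehyde than with 4-hydroxybenzaldehyde, and 15 of the 16 when either 4-hydroxybenzaldehyde library was left out, against 10.2% of all genes tested. With 4-hydroxybenzaldehyde against the control, 2 of the 16 also rose and 0 fell. The 2 were ARZ_9991_T1 and ARZ_15400_T1, which rose by 2.45 and 2.21 on the log2 scale (edgeR adjusted p = 0.000195 and 0.00174). The 16 were chosen for high values in the same syringaldehyde libraries. Of the 2 syringaldehyde libraries, replicate 1 was above replicate 2 for 14 of the 16 genes, with a median ratio of 1.53 and a highest of 4.04. Without syringaldehyde replicate 2, 7 of the 16 were higher than with vanillin.

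**Figure D4:**
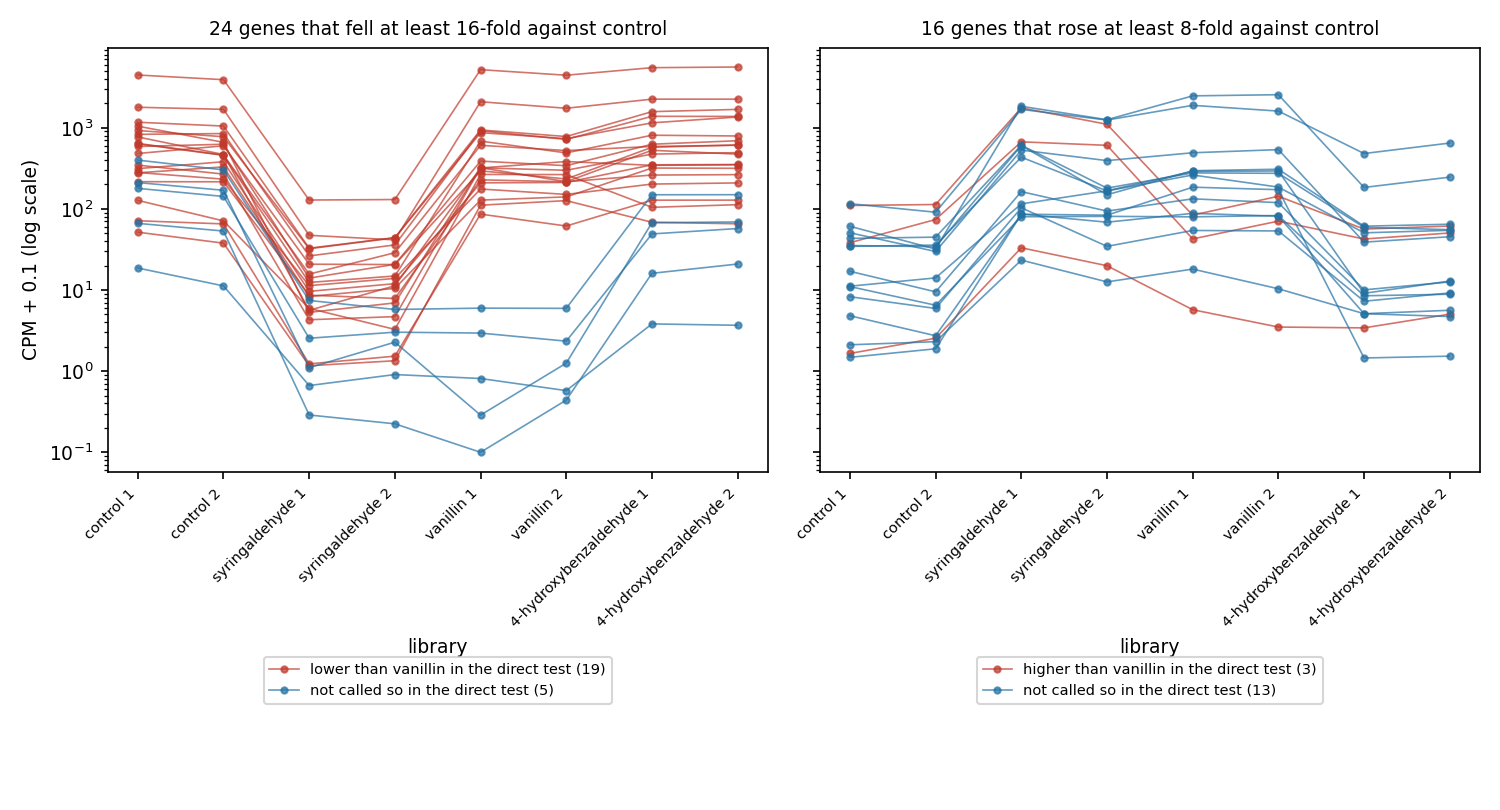
Level in each library of the phenolic aldehyde table of the 24 genes that fell at least 16-fold and of the 16 genes that rose at least 8-fold with syringaldehyde, with a line for each gene, CPM + 0.1 on a log axis and red for the 19 falls and 3 rises that also differed from vanillin. The 19 falls in red are low in the 2 syringaldehyde libraries relative to every other library, while most of the rising genes are also high in the 2 vanillin libraries.

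In the furan and weak acid tables, each tested separately against its own control, the named falls took different courses. ARZ_10440_T1, the deepest fall with syringaldehyde, was also nearly lost with acetic acid, at 0.179 and 0.220 CPM against 35.8 and 63.6 CPM in the acid control. With furfural it had 0.621 and 1.30 CPM and with HMF 4.29 and 3.38 CPM, against 28.3 and 44.3 CPM in the furan control. With formic acid it stood at 128 and 87.2 CPM, above both acid controls. The fitted log2 fold changes were -7.91 with acetic acid, -5.19 with furfural, -3.23 with HMF and 1.11 with formic acid, and all passed edgeR's quasi-likelihood test (adjusted p = 1.11e-06, 2.24e-11, 1.16e-08 and 0.00491). The lowest of these levels rest on few reads, so their folds are imprecise. The other named falls, the 4 genes lower with syringaldehyde than with vanillin, gave log2 fold changes from -0.98 to 1.13 there. ARZ_6481_T1 gave log2 fold changes of 0.25 with furfural, -0.22 with HMF, 0.54 with acetic acid and 0.70 with formic acid, and passed the test with both acids (edgeR adjusted p = 0.0247 and 0.00552). ARZ_925_T1 gave -0.41, -0.38, 0.78 and 1.13 in the same order and passed with all but HMF (edgeR adjusted p = 0.0305 for furfural, 0.00105 for acetic acid and 4.64e-05 for formic acid). ARZ_10978_T1 gave -0.26, -0.12, -0.45 and 0.45 and passed with the acids (edgeR adjusted p = 0.0381 and 0.0318). ARZ_800_T1 gave -0.75, -0.98, 0.27 and -0.59 and passed with the furans (edgeR adjusted p = 0.0148 and 0.0109). The tables were normalized separately, and no difference between them was tested.

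Changes were also read along the identifier numbers. Whether the numbers follow the order of genes in the genome is not stated in the sources used here. Of the 669 genes that rose at least 2-fold, 87 (13.0%) had an adjacent number that also rose at least 2-fold, and of the 795 that fell, 127 (15.97%) had one that fell. Over all genes tested, 3.82% rose and 4.54% fell by that much, and a gene has up to 2 adjacent numbers. Runs of at least 3 consecutive numbers held 21 rising genes in 7 runs and 29 falling genes in 9 runs. A run of 4 that includes ARZ_925_T1 fell by log2 changes of -6.12 to -2.34, and a run of 3 with ARZ_10978_T1 fell by -5.29 to -4.73. Another run of 4 fell by -5.73 to -3.93. Of the 29 genes in falling runs, 18 were also lower than with vanillin, against 2.84% of all genes tested, and these comparisons share the syringaldehyde libraries. In 5 of the 9 falling runs every gene was lower than with vanillin, in 3 none was and in 1 some were. Of the 21 genes in rising runs, 10 were higher than with vanillin, against 1.9% of all genes. ARZ_6481_T1 and its neighbour fell by -5.02 and -4.46. Correlations along the numbers used only genes with at least 10 CPM in the syringaldehyde or control mean. Across these genes, the Pearson correlation of log2 fold changes was 0.163 between adjacent numbers (8682 pairs) and 0.0989 at a distance of 2 (8318 pairs). It was -0.003 at a distance of 5 and 0.006 at a distance of 100.

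Some identifiers changed in parallel with distant ones. In the 16 libraries that are neither syringaldehyde nor its control, 100 pairs of distant identifiers were each other's best-correlated partner and lay beside further such pairs whose numbers ran in the same or the reverse order. Their log2 fold changes with syringaldehyde correlated at r = 0.933 across the 100 pairs, with a median absolute difference of 0.187, and at r = 0.903 without the pair that holds ARZ_10440_T1. Of the 45 pairs with at least 1 called gene, both genes were called in the same direction in 31 and in opposite directions in 0. Among 2378 best-correlated pairs with no such neighbours r was 0.426, and of the 1126 with a called gene both were called in the same direction in 261 and in opposite directions in 19. Of the 200 genes in parallel stretches, 76 (38.0%) were called, against 24.1% of all genes tested, and only genes with a mean count of at least 20 could enter a pair. All pairs share the same 4 libraries. The 16 libraries that chose the pairs include those of vanillin and 4-hydroxybenzaldehyde, so the choice may itself favour agreement with syringaldehyde. Pairs with and without such neighbours were not matched on their correlation in the 16 libraries, so the difference in r is a description only. How reads shared by similar genes were counted is not stated, so calls within such pairs may not be separate, and the similarity of their sequences was not tested.

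**Figure D5:**
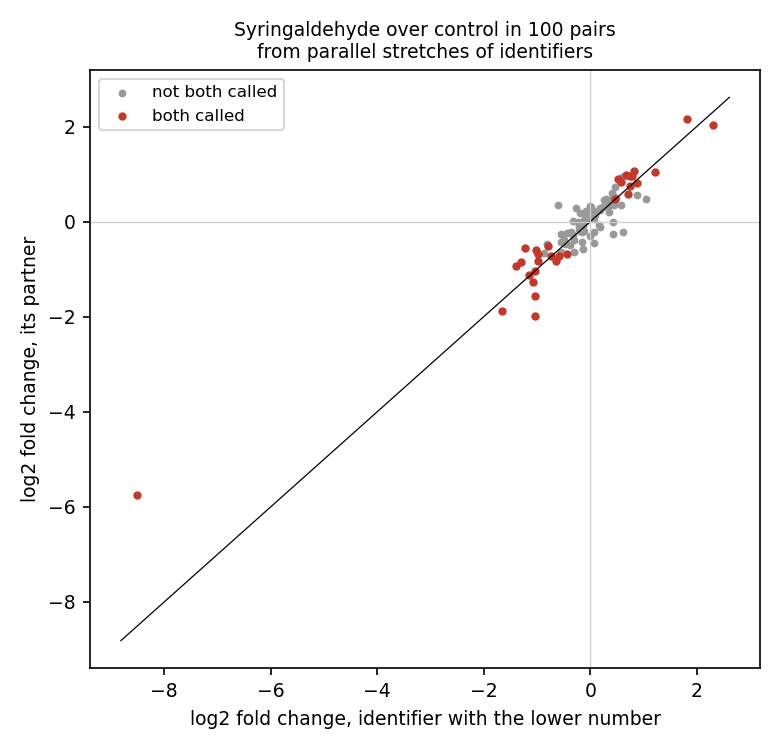
Log2 fold change of syringaldehyde over control for the identifier with the lower number (horizontal axis) and its partner (vertical axis) in the 100 pairs from parallel stretches, with pairs called for both genes in red and a line of equality. Most pairs lie near the line, with a median absolute difference of 0.187. The pair at the lower left, ARZ_10440_T1 and its partner, lies off the line at -8.52 and -5.75.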

How the data were processed

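Read counts for 18830 identifiers in 20 mycelial libraries were deposited as whole numbers, in separate tables for furans, phenolic aldehydes and weak acids. The aligner, the counting program and the gene models were not given in the sources used here. Per the submitters' processing notes the build was Sscrofa 10.2, which is an assembly of the pig and not of a fungus. Total RNA was extracted with Trizol and sequenced on an Ion Proton, per the labels' protocols. A RefSeq table of 9642 genes from another strain of the species (assembly Amore1) matched 0 identifiers, so the planned gene families could not be described and no sequences are shown.

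The phenolic aldehyde table, 8 libraries in 4 groups, was filtered with filterByExpr. This left 17495 genes, and those left out held 0.0210% of the counts. Counts were scaled by TMM (factors 0.942 to 1.055) and fitted without a replicate block by the robust quasi-likelihood method of edgeR 4.0.16 under R 4.3.3. Tests were two-sided, with p-values adjusted by Benjamini-Hochberg across every gene tested. The common biological coefficient of variation was 0.155. Same-numbered libraries of different groups were not taken as pairs, since the labels do not pair them. The deviations of same-numbered syringaldehyde and control libraries correlated at -0.0385 across genes. Other pairs of groups gave -0.125 (control and vanillin) to 0.0981 (vanillin and 4-hydroxybenzaldehyde). Standard errors come from the F statistics. Molar doses come from rdkit 2024.09.2. Intervals from reads cover counting error only, and were made where a named gene had at most 20 reads in a group. The furan and weak acid tables were fitted alike.

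Named genes had an adjusted p under 0.05, at least 2-fold change, at least 10 CPM in a group mean and no overlap between groups. Against the control, the largest fold and the largest change of mean CPM were named in each direction, and against each other aldehyde the 2 largest differences in each direction that also moved that way against the control. The comparisons, groups and lists were chosen with earlier results of these data known. The 8- and 16-fold sets and the rule for parallel pairs were chosen after the values were seen. Scripts were tested on simulated data. Alternatives were DESeq2 1.42.0, other size factors, other filters, a replicate block and a fit of only the groups compared. Each library of the groups compared was also left out in turn.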

Additional observations from a re-analysis of the deposited data

How the results depend on the processing

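Of the counts of changed genes, those against the control kept within 1.5 times of 4218 with DESeq2's size factors (4202), no filter (4203), a 10 CPM filter (3894) and DESeq2 (4432). With only these 2 groups the counts were 2067, 876 higher and 1191 lower. Leaving out 1 library gave 1625 to 5853 changed genes, 589 to 2776 higher and 1036 to 3077 lower. Rises of at least 2-fold numbered 378 to 987 and falls 559 to 1335 under the same removals, and 445 rises were called with the 10 CPM filter, which tests fewer genes. The alternatives for the 2-fold, 8-fold and 16-fold sets were added after seeing the data; leaving out 1 library gave 11 to 21 rises of at least 8-fold and 24 to 28 falls of at least 16-fold. Against vanillin only 2 groups gave 437 genes, 135 higher and 302 lower, and leaving out 1 library gave 263 to 2166, 44 to 1105 higher and 219 to 1061 lower. Against 4-hydroxybenzaldehyde leaving out 1 library gave 1116 to 4905, 399 to 2510 higher and 701 to 2395 lower. The cause of these shifts was not tested. With a replicate block, 3941 genes changed against the control, 706 against vanillin and 3441 against 4-hydroxybenzaldehyde, and no named gene lost its call. In 10 alternatives the 24 deep falls all stayed called against the control and 4-hydroxybenzaldehyde, and the 19 against vanillin; of the 16 strong rises, 15 stayed called against 4-hydroxybenzaldehyde when either of its libraries was left out. Scaling moved the median of all genes by under 0.1 on the log2 scale. Genes under 1 CPM are limited by depth.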
